A study of Mus musculus with 6 samples.

Results

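Olfactory receptors are G protein-coupled receptors that bind odorants, and their genes form the largest gene family in the mouse genome. A mature olfactory sensory neuron expresses a single receptor allele out of the whole family. The receptor signals through the G protein alpha subunit Gnal, the adenylate cyclase Adcy3 and a cyclic nucleotide-gated channel that holds Cnga2. The genes are short, have their coding sequence in a single exon and lie in clusters on most chromosomes, with the class I receptors together on chromosome 7. The esophagus is not an olfactory organ, and low olfactory receptor transcripts have been described in many tissues outside the nose.

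The olfactory receptor probes described here are those whose gene name starts with Olfr and a digit and whose spots were marked well above background in both dyes on all 6 arrays of the study. They are 220 probes of 216 genes, out of 964 probes of 918 olfactory receptor genes, on an array with 41174 probes that are not controls. They were chosen by the detection marks, which are measured values of these arrays, so their detection is a description, and a probe dim on either group of arrays could not enter.

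The samples were 3 arrays labelled Pax9 knockout, of adult C57BL/6J mice with a keratin 5 Cre driver and floxed Pax9 alleles (K5Cre;Pax9 loxp/loxp), and 3 control arrays labelled wild type, of adult mice of the same strain. Pax9 is a paired-box transcription factor. Keratin 5 drives Cre in the basal cells of stratified epithelia, so cells of the organ outside that epithelial lineage keep an intact allele. The RNA in Cy5 is labelled as esophageal epithelium, while the protocol names esophageal tissue. Cy3 held the same reference RNA on every array, pooled from 11 mouse cell lines, and no dyes were swapped. Per the labels the arrays of a group are biological replicates, and whether animals were pooled is not said. The p-values therefore speak only of the spread among these 6 samples.

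All arrays labelled Pax9 knockout were on 1 slide and all arrays labelled wild type on the other, so slide and genotype cannot be told apart. The share of spots well above background in Cy5 was 72.3% to 76.6% over the knockout arrays and 67.9% to 77.7% over the wild type arrays. The Pax9 probe itself had Cy5 signals of 17209, 18930 and 19081 on the arrays labelled knockout, against 4409, 4708 and 8915 on those labelled wild type. The probe was thus not lower where the label says knockout (difference in log2 ratio 0.73, SE 0.18, adjusted p = 0.07 in limma), and the sources used here do not tell whether the probe lies inside the deleted stretch. The Pax9 spot lies in row 338 of the array, and differences ran with the row, as described below. The median Cy5 signal over all spots that are not controls was 101.8, 140.0 and 129.2 on the knockout arrays, against 59.0, 75.9 and 166.9 on the wild type arrays. Of the 11 probes of the esophageal epithelium marker genes (Krt5, Krt14, Krt15, Krt4, Krt13, Trp63, Sox2 and Sprr3), 1 was well above background in Cy5 on no array, and their summed Cy5 signal ran between 768249 and 2223599. The arrays are called by their labels throughout.

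The sequences below are those of probes on which the results turn, as the scanner files give them, 5′ to 3′, with positions on mouse build mm9. Olfr266 (chr3:106625295-106625354, minus strand) and Olfr332 (chr11:58303613-58303672, minus strand) had the largest positive differences. Olfr43 (chr11:74020121-74020180, minus strand) and Olfr128 (chr17:38060811-38060870, plus strand) were lower on the knockout arrays. The Olfr166 probe (chr16:19487305-19487364, plus strand) is printed 10 times on each array. No run of 20 or more bases of these 5 probes occurs in a probe of another olfactory receptor gene, so they carry no capitals.
Olfr266: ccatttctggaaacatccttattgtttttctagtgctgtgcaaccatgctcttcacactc
Olfr332: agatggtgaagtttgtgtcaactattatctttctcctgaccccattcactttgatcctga
Olfr43: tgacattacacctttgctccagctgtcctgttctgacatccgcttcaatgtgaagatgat
Olfr128: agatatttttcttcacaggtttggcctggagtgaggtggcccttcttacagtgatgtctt
Olfr166: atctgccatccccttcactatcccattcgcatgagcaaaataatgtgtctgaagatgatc

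Of the 220 probes, 27 were higher on the knockout arrays and 4 were lower by limma with Benjamini-Hochberg adjustment over 30479 tested probes at 0.05. Over all tested probes 2.4% were higher, 1.78% were lower and 4.18% were called in either direction, against 31 of 220 receptor probes (14.1%), so that the share called higher among the olfactory receptor probes, 12.3%, was above that background and the share called lower, 1.82%, was near it. Their median difference, knockout minus wild type on the log2 ratio scale, was 0.20 (quartiles -0.19 and 0.57), beside -0.02 over the 24729 other probes detected on all arrays. The log ratios of the groups did not overlap for 90 probes higher on the knockout arrays (40.9%, beside 15.5% of all tested probes) and for 41 lower (18.6%, beside 14.9%). 138 of 220 probes were above 0, and 111 (50.5%) had an unadjusted p under 0.05, beside 23.3% of all tested probes. With the replicate number as a block 40 probes were higher and 9 lower, with 7.4% of all tested probes called. Leaving out an array lowered the count called, among the receptor probes and over all tested probes. Without Pax9 knockout replicate 3 no receptor probe was called in limma, with 0.125% of all tested probes called. There 79 had an unadjusted p under 0.05, beside 16% of all tested probes. Without Pax9 knockout replicate 1, wild type replicate 1 or wild type replicate 2 there were 4, 2 and 2 higher and 0 lower. Over all tested probes 1.06%, 0.354% and 0.679% were then called. Without Pax9 knockout replicate 2 there were 23 higher and 1 lower (2.74% of all tested probes called). Without wild type replicate 3 there were 17 higher and 6 lower (3.65%). For a single probe, permuting 3 and 3 arrays exactly gives no p under 0.1.

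The receptor probes were dim. Their median background-subtracted Cy5 signal was 100, 129.6 and 116.1 on the knockout arrays, against 44.1, 52.8 and 114.6 on the wild type arrays. The median Cy3 signal of the same probes was 91.8, 113.9 and 101.0 on the knockout arrays, against 113.1, 109.3 and 119.8 on the wild type arrays. Wild type replicate 3 lay among the knockout arrays in Cy5, and the 2 other wild type arrays lay below all knockout arrays. The other probes detected on all arrays had median Cy5 signals of 550.0, 761.1 and 749.3 on the knockout arrays, against 331.0, 380.7 and 969.8 on the wild type arrays, with wild type replicate 3 again the brightest of its group.

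**Figure D1:**
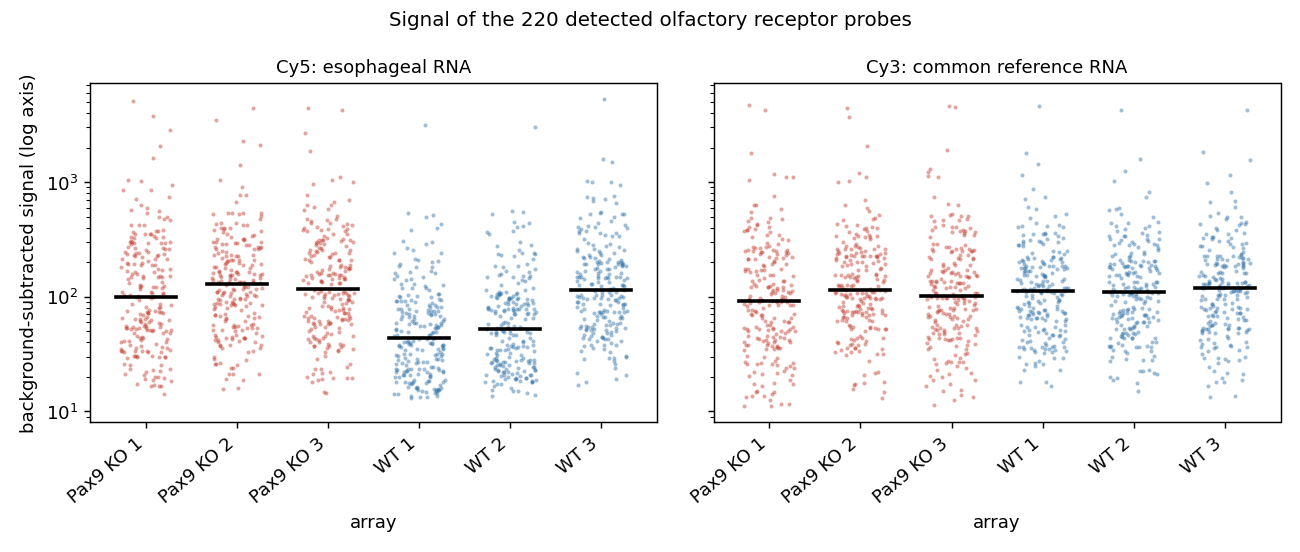
Background-subtracted signal (log axis) of the 220 olfactory receptor probes on each array, in Cy5 (left) and in the Cy3 reference (right). Each point is a probe and each black line the median, which lay between 44.1 and 129.6 in Cy5 and between 91.8 and 119.8 in Cy3.

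After normalization within arrays, which removes an overall difference between the dyes, most receptor probes had a log2 ratio of esophagus over cell line reference slightly above 0. The mean of this ratio over the 6 arrays had a median of 0.55 (quartiles 0.34 and 0.86) and was above 0 for 214 of 220 probes, beside a median of 0.09 over the other detected probes. In the signals before normalization, the median Cy5 of the receptor probes was above that of Cy3 on the knockout arrays and below it on the wild type arrays. An offset of 50 was added to both channels before the ratio. With an offset of 16 the median difference between the groups was 0.24 in place of 0.20, with Olfr266 at 3.62 and Olfr332 at 2.32, so the differences of single probes moved either way. The highest ratios were those of Olfr332, at 3.59, Olfr103, at 2.57, and Olfr266, at 2.44. The lowest were those of Olfr1221, at -2.41, Olfr978, at -1.04, and Olfr397, at -0.55. Olfr1221 had Cy3 signals of 4686, 3717 and 4501 on the knockout arrays, against 1426, 1248 and 1569 on the wild type arrays, although this channel held the same RNA on all of them.

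The probes with the highest mean Cy5 signal were those of Olfr571, Olfr332, Olfr174 and a probe of Olfr234. The class I receptor Olfr571 had Cy5 signals of 3775, 4466 and 4227 on the knockout arrays, against 3154, 3005 and 5354 on the wild type arrays, and its groups overlapped. Olfr174, which RefSeq names Olfr175, had 2060, 1413 and 1866 on the knockout arrays, against 497, 551 and 1510 on the wild type arrays, again overlapping. Neither passed the threshold in the log ratio (adjusted p = 0.15 and 0.38 in limma). Olfr103, the receptor with the second highest ratio, had 1038, 1050 and 1050 in Cy5 on the knockout arrays, against 431, 375 and 1025 on the wild type arrays, with a difference of 0.44 (SE 0.18, adjusted p = 0.20 in limma).

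Olfr266 had the largest difference. Its Cy5 signal was 1617, 914 and 992 on the knockout arrays, against 22.7, 18.5 and 98.0 on the wild type arrays, so that all knockout arrays lay far above all wild type arrays. Its log2 ratio averaged 4.20 ± 0.58 on the knockout arrays and 0.68 ± 0.50 on the wild type arrays (SD, n = 3 each), a difference of 3.52 (SE 0.35, adjusted p = 0.0086 in limma). Its Cy3 signal was 65.6, 66.4 and 61.7 on the knockout arrays, against 25.8, 18.9 and 19.4 on the wild type arrays. The reference channel thus differed in the same direction, by 0.73 on the log2 scale, and by less than the sample channel, at 3.23.

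Olfr332 had Cy5 signals of 5089, 3511 and 4455 on the knockout arrays, against 127, 153.5 and 410 on the wild type arrays. Its Cy3 signals were 242, 221 and 245 on the knockout arrays, against 41.5, 52.5 and 39.9 on the wild type arrays. Neither channel overlapped between the groups, and the log2 ratio differed by 2.72 (SE 0.27, adjusted p = 0.0086 in limma). Olfr570, a class I receptor on chromosome 7, had 2829, 2110 and 2669 in Cy5 on the knockout arrays, against 162, 158 and 483 on the wild type arrays. Its Cy3 signals were 1103, 1030 and 1108 on the knockout arrays, against 361, 338 and 422 on the wild type arrays. Its log2 ratio rose by 1.34 (SE 0.18, adjusted p = 0.017 in limma), while its Cy3 signal alone was higher by 1.58.

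The other probes with the smallest p and those with the next largest differences had the same form. Olfr1341, Olfr1269, Olfr74, Olfr483, Olfr469, Olfr446, Olfr411, Olfr1355 and the transcribed pseudogene Olfr1372-ps1 rose by 1.85, 1.69, 1.63, 1.43, 1.28, 1.26, 1.14, 1.11 and 0.99 in the log2 ratio. Their Cy3 signals alone were higher on the knockout arrays by 0.90, 1.63, 1.75, 1.53, 1.46, 1.31, 1.44, 1.51 and 0.95, in that order. All 9 passed in limma with adjusted p between 0.013 and 0.026. For Olfr74 the Cy5 signals were 945, 534 and 954 on the knockout arrays, against 31.8, 36.0 and 98.0 on the wild type arrays, and the Cy3 signals were 381, 276 and 374.5 on the knockout arrays, against 74.1, 65.8 and 77.8 on the wild type arrays.

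The 4 probes that fell were those of Olfr549, Olfr128, Olfr43 and Olfr1381, with differences of -1.02, -1.01, -0.93 and -0.79 and adjusted p of 0.043, 0.026, 0.020 and 0.043 in limma. Olfr43 had Cy5 signals of 55.9, 46.1 and 58.5 on the knockout arrays, against 264.5, 299 and 705 on the wild type arrays. Its Cy3 signals were 43.8, 39.3 and 48.1 on the knockout arrays, against 402, 418 and 443 on the wild type arrays. Both channels were lower on every knockout array than on any wild type array.

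The reference signal of the Olfr128 probe was low on the knockout arrays. Its Cy3 signal was 13.7, 13.1 and 13.3 on the knockout arrays, against 219, 225 and 225 on the wild type arrays, and its Cy5 signal was 20.7, 15.7 and 21.7 on the knockout arrays, against 142, 136 and 356 on the wild type arrays. The class I receptor Olfr549 had Cy3 signals of 193, 186 and 188 on the knockout arrays, against 580, 580 and 608 on the wild type arrays. The largest negative differences did not pass: Olfr1143 differed by -1.24 (SE 0.30, adjusted p = 0.067), Olfr930 by -1.22 (SE 0.26, adjusted p = 0.053) and Olfr391-ps by -1.04 (SE 0.24, adjusted p = 0.058), all in limma. With the replicate number as a block all 3 passed, with adjusted p of 0.043, 0.021 and 0.028 in limma. Their Cy3 differences were -1.88, -1.25 and -1.07.

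**Figure D2:**
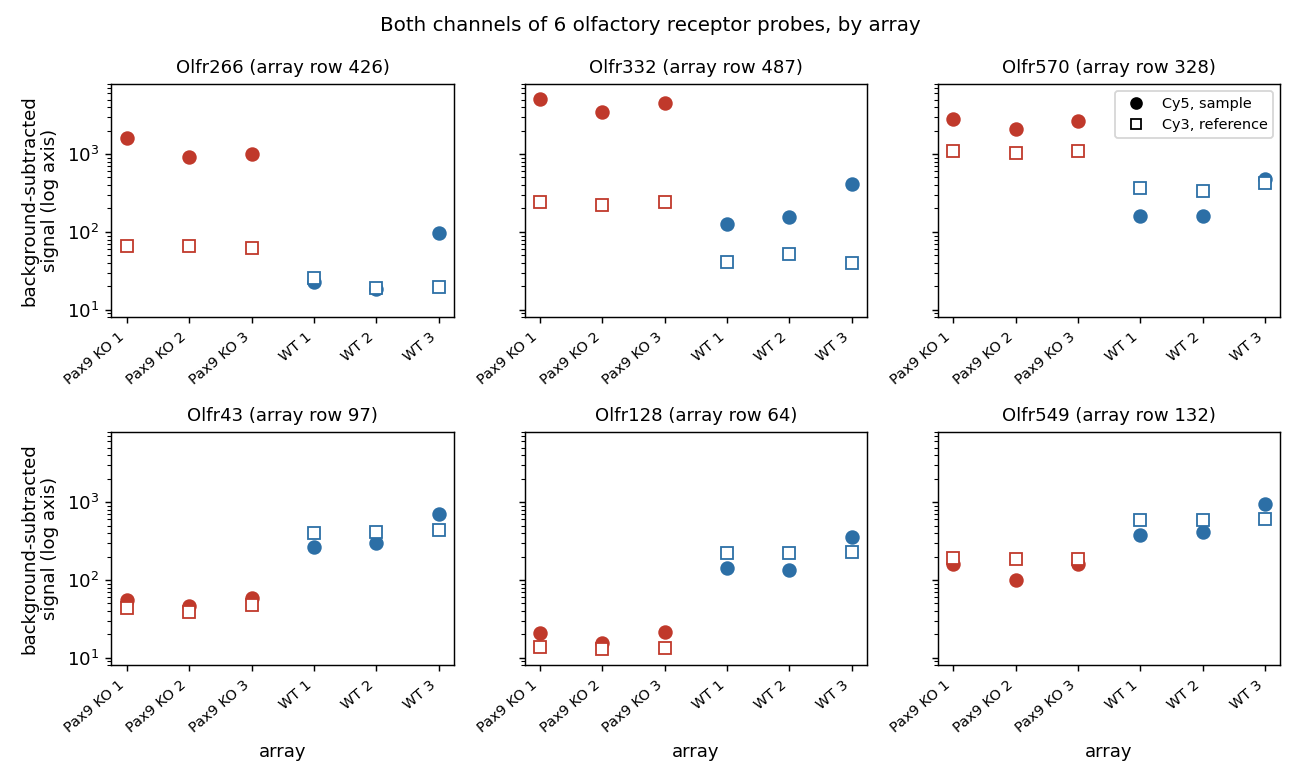
Background-subtracted signal (log axis) of the Olfr266, Olfr332, Olfr570, Olfr43, Olfr128 and Olfr549 probes on each array, with filled circles for Cy5 (sample) and open squares for Cy3 (reference). In each panel the Cy3 squares, which stand for the same RNA on all arrays, differ between the groups in the direction of the Cy5 circles.

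The reference channel of the receptor probes differed between the groups as well. In the same fit on Cy3 alone, quantile normalized between arrays, 81 of the 220 probes (36.8%) were higher on the knockout arrays and 51 (23.2%) lower. Over all tested probes these shares were 29.4% and 25.2%, so the share lower was slightly below that background. In Cy5 alone the counts were 63 higher (28.6%) and 38 lower (17.3%), with 12.8% and 14.4% over all tested probes. For all 31 probes called in the log ratio the Cy3 signal alone passed in the same direction. For 186 of 220 probes the Cy3 difference had the sign of the log ratio difference. Over all tested probes Cy3 alone passed for 54.6% in either direction, and the agreement in sign is not given for them. 70 of 220 receptor probes (31.8%) had a Cy3 difference beyond 1 on the log2 scale, beside 2.97% of the other detected probes. Over the 220 probes the Cy3 difference had a Spearman correlation of 0.96 with the Cy5 difference and of 0.84 with the log ratio difference, and over the other probes 0.80 and 0.49. These probes share arrays, and the Cy3 values enter the log ratio, so the correlations are a description.

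The differences followed the place of the spot on the array. A spot's row runs from 1 to 532. All 27 probes called higher lay in rows 267 to 532, the lowest of them in row 328, and all 4 called lower lay in rows 1 to 266, the highest of them in row 132. The calls among other detected probes with a single spot lay mostly the same way, with 448 called higher in rows 267 to 532 and 40 in rows 1 to 266, and with 359 called lower in rows 1 to 266 and 57 in rows 267 to 532. Over the 219 receptor probes with a single spot, the row had a Spearman correlation of 0.80 with the difference in log ratio, 0.84 with that in Cy5 and 0.82 with that in Cy3. Over the other detected probes the values were 0.60, 0.75 and 0.75. The column of the spot had a correlation of -0.07 with the log ratio difference.

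The row pattern was read in 8 bands of rows. The median log ratio difference of the receptor probes was -0.46, -0.59, -0.23, -0.03, 0.20, 0.52, 0.73 and 0.73 from the lowest to the highest band. The other probes had -0.37, -0.29, -0.13, -0.09, 0.01, 0.15, 0.25 and 0.35 in the same bands. In Cy3 alone the receptor probes had medians of -0.71, -1.21, -0.54, -0.05, 0.07, 0.79, 1.14 and 1.10, and the other probes had -0.21, -0.39, -0.33, -0.07, 0.13, 0.19, 0.22 and 0.26. Both sets thus ran the same way along the rows, with a wider range in the receptor probes. Within rows 1 to 266 the median log ratio difference of 85 receptor probes was -0.27, with 0 higher and 4 lower, and within rows 267 to 532 that of 134 probes was 0.43, with 27 higher and 0 lower. The calls in opposite directions therefore came from opposite ends of the arrays.

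**Figure D3:**
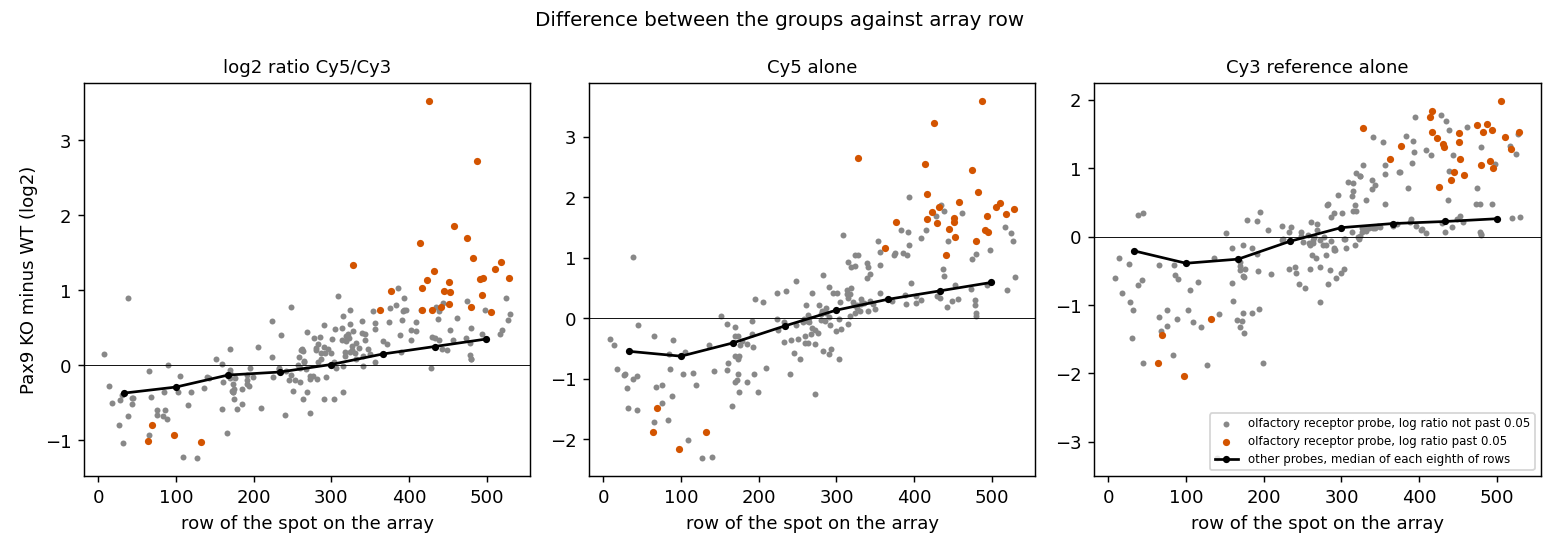
Difference knockout minus wild type (log2) of each receptor probe against the row of its spot, for the log ratio (left), Cy5 alone (middle) and the Cy3 reference alone (right). Orange points passed 0.05 in the log ratio, grey points did not, and the black line joins the medians of the other detected probes in 8 bands of rows, which ran from -0.37 in the first band to 0.35 in the last for the log ratio.

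The row pattern had opposite slopes on the slides. Within a single knockout array, the row had Spearman correlations of 0.57, 0.32 and 0.53 with the receptor probes' Cy5 level, against -0.59, -0.63 and -0.64 on the wild type arrays. For the Cy3 level the values were 0.49, 0.29 and 0.46 on the knockout arrays, against -0.49, -0.51 and -0.50 on the wild type arrays. Pax9 knockout replicate 2 had the weakest slope of its slide. Over the other detected probes these correlations had the same signs on each slide in both dyes, and none was beyond 0.17 in size. For Cy5 they were 0.17, 0.11 and 0.13 on the knockout arrays, against -0.07, -0.07 and -0.09 on the wild type arrays.

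Identical spots showed the same. The 10 spots of the Olfr166 probe lie in rows 9 to 423. On Pax9 knockout replicate 1 the spot in row 9 gave 203 in Cy5 and 320.5 in Cy3, and the spot in row 423 gave 703 in Cy5 and 711 in Cy3. On wild type replicate 1 the spot in row 9 gave 197 in Cy5 and 547 in Cy3, that in row 359 gave 69.1 in Cy5 and 293 in Cy3, and that in row 423 gave 149 in Cy5 and 491.5 in Cy3. The wild type signals were thus lowest before the last spot, and on wild type replicate 2 the spot in row 423 was the brightest of the 10 in Cy5, at 241. The brightest spot was 2.48 to 3.89 times the dimmest in Cy5 on the knockout arrays and 2.77 to 3.24 times on the wild type arrays. Among the 165 probes printed 10 times and detected in both dyes on all arrays, the median of that ratio was 2.00 to 2.32 on the knockout arrays and 1.55 to 1.77 on the wild type arrays. The row had a Spearman correlation of 0.85 to 0.95 with the Olfr166 Cy3 signal on the knockout arrays, and of -0.88 to -0.56 on the wild type arrays. With the Cy5 signal it was 0.87, 0.96 and 0.90 on the knockout arrays, against -0.85, -0.36 and -0.83 on the wild type arrays.

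Averaged over its 10 spots, Olfr166 had a log ratio difference of 0.29 (SE 0.21, adjusted p = 0.44 in limma). A probe of Olfr1307, also printed 10 times, met the detection rule at 4 of its spots and is not among the 220. Its Cy3 signals on the knockout arrays were 25.8, 31.2 and 26.7 in row 125 and 123, 107.4 and 127 in row 450, against 118, 129 and 152 in row 125 and 27.7, 40.8 and 30.3 in row 450 on the wild type arrays. The same probe was thus dimmer on the knockout arrays at one place and brighter at another. Olfr166 and Olfr1307 were chosen for their repeated spots, after their values were seen.

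**Figure D4:**
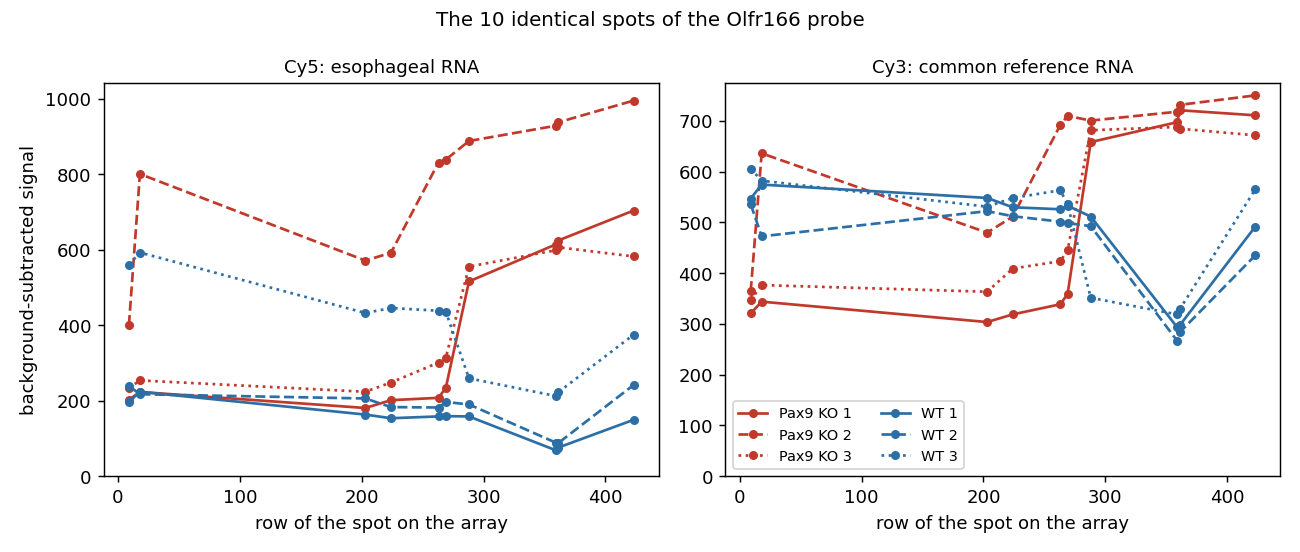
Background-subtracted signal of the 10 identical Olfr166 spots against their row, in Cy5 (left) and in the Cy3 reference (right), with a line for each array. Signals on the arrays labelled Pax9 knockout were mostly higher in higher rows, with 203 in row 9 and 703 in row 423 in Cy5 on replicate 1, and those on the wild type arrays were lowest in rows 359 and 361.

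Probes with a shared stretch of sequence but a different row were compared next. Of the 220 probes, 16 share a run of 20 or more bases with a probe of another olfactory receptor gene, the longest of 43 bases, and 2 share such a run with a probe of another kind of name. The 2 probes of Olfr1359 overlap by 39 bases, shown in capitals, at chr13:21795470-21795529 and chr13:21795491-21795550 on the plus strand.
Olfr1359, row 68: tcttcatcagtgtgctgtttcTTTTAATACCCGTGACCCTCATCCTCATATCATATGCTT
Olfr1359, row 388: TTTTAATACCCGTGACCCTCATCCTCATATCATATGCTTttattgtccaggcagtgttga
The probe in row 68 had a log ratio difference of -0.42 (SE 0.16, adjusted p = 0.17 in limma) and the probe in row 388 one of 0.40 (SE 0.16, adjusted p = 0.20). In Cy3 alone their differences were -1.38 and 0.21. Overlapping probes of the same transcript thus had opposite signs, and neither passed the threshold.

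The neighbouring chromosome 2 receptors Olfr338 and Olfr346 share a run of 20 bases, and the chromosome 7 receptors Olfr530 and Olfr536 share a run of 40 bases, so signal from either transcript may reach both probes of a pair. The shared runs are in capitals.
Olfr338: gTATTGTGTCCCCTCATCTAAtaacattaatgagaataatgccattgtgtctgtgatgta
Olfr346: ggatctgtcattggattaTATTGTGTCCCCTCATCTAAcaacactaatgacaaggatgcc
Olfr530: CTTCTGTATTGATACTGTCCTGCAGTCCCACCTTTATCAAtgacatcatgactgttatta
Olfr536: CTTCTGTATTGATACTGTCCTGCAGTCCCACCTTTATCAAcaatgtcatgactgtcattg
Olfr338 in row 84 differed by -0.35 and Olfr346 in row 375 by 0.76. Olfr530 in row 402 differed by 0.47 and Olfr536 in row 242 by -0.07. None of the 4 passed the threshold, and in both pairs the probe in the higher row had the higher value. Olfr485 and Olfr494, whose probes share 43 bases and lie in the close rows 326 and 319, differed by 0.26 and 0.39. Olfr177 and Olfr174, whose probes share 26 bases and lie in rows 285 and 283, differed by 0.38 and 0.29 in the log ratio, and by -0.49 and 0.47 in Cy3 alone. Their Cy3 differences thus had opposite signs in nearly the same row. These pairs were chosen for their shared runs, after their values were seen.

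The other genes with 2 detected probes gave closer values. Those of Olfr493 differed by 0.02 in row 159 and 0.01 in row 257, those of Olfr456 by 0.20 in row 280 and 0.59 in row 339, and those of Olfr234, which RefSeq names Olfr279, by -0.03 in row 195 and -0.45 in row 303. No probe of these 3 genes passed the threshold (adjusted p of 0.15 to 0.98 in limma). Of the 4 genes with 2 detected probes, the probe in the higher row thus had the higher value for Olfr1359 and Olfr456, and not for Olfr493 and Olfr234.

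Set beside other probes of the same Cy5 signal, the receptor probes still had more calls. When the detected probes were put in 10 bins of equal size by mean log2 Cy5, 208 of 220 receptor probes fell in the 4 dimmest bins. In bin 2 12.5% of 72 receptor probes were called higher, beside 3.92% of 2423 other probes. In bin 3 24.0% of 50 receptor probes were called higher, beside 4.01% of 2445 other probes, and in bin 4 14.8% of 27 receptor probes, beside 3.32% of 2468. In the dimmest bin none of 59 receptor probes was called, with 0.616% of the others called higher and 1.23% lower. At the other probes' share in each bin, 6.3 receptor probes would be called higher and 4.6 lower, in place of 27 and 4.

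The Cy3 channel parted the receptor probes from other probes in those bins too. The median size of the Cy3 difference, whatever its sign, was 0.66, 0.94 and 0.79 among receptor probes of bins 2, 3 and 4, beside 0.28, 0.27 and 0.26 among the other probes. In the dimmest bin it was 0.21 and 0.23. In bins 2 to 4 the reference signal of the receptor probes thus differed more between the slides than that of other probes equally bright in Cy5. In bin 5, with 6 receptor probes, the median size was 0.22 and 0.24. In bin 6, with 3 receptor probes of which 2 were called higher, it was 1.58 and 0.24. Bins 7 and 9 held 2 and 1 receptor probes, with 0.41 and 0.24 beside 0.21 and 0.19 among the other probes.

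The receptor probes shared a base content that the rule did not use. Their 60 bases held a median of 12 A, 16 C, 10 G and 22 T, beside 17 A, 12 C, 13 G and 17 T in the other detected probes, with the same median GC content of 43.3%. They lay nearer the start of the transcript, at a median position of 578 beside 1720. Over all 964 olfactory receptor probes the medians were 14 A, 14 C, 10 G and 22 T, with a position of 559. The G and T content and the position were thus close to those of the whole family and not particular to the detected probes. GC content had a Spearman correlation of 0.03 with the log ratio difference of the receptor probes, and transcript position one of -0.05.

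Other probes with few A or many C had more calls as well. Among the 7291 other probes with a single spot in bins 2 to 4, 18.3% of the 268 probes with at most 9 A were called in either direction, 13.3% of the 774 with 10 to 12, and 1.65% of the 786 with 23 or more. By C content, 1.64% of the 1523 probes with at most 9 C were called and 14.6% of the 548 with 19 to 22. The median size of the Cy3 difference was 0.60 in the other probes with at most 9 A and 0.25 in those with 19 to 22. The 149 receptor probes of these bins had 19.5% called and a median Cy3 size of 0.82, and within them the share called showed no steady order with A content, at 14.3% of 42 with at most 9 A, 24.5% of 49 with 10 to 12 and 17.5% of 40 with 13 to 15. By C content, 11.3% of 53 receptor probes with 13 to 15 C were called and 32.3% of 62 with 16 to 18, with a median Cy3 size of 0.59 and 1.07. These classes of base content were set after the values were seen.

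By chromosome, most of the receptor probes lay on chromosome 2, with 50, chromosome 7, with 47, chromosome 9, with 26, and chromosome 11, with 22. The share of olfactory receptor probes that met the detection rule was 20.2% on chromosome 2, 22.6% on chromosome 7, 21.3% on chromosome 9 and 33.8% on chromosome 11. The median log ratio differences of these chromosomes were 0.16, 0.20, 0.22 and 0.08. Chromosome 2 had 5 probes higher and 0 lower, chromosome 7 had 7 and 1, chromosome 9 had 1 and 0, and chromosome 11 had 4 and 2. The shares called in either direction were 10%, 17.0%, 3.85% and 27.3% of their receptor probes, beside 4.18% of all tested probes. Chromosome 4, with 9 probes of median row 377, had a median of 0.49 and 3 probes higher. Chromosome 17, with 7 probes of median row 90, had a median of -0.25 and 1 probe lower.

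Within a chromosome the rows parted the probes. On chromosome 2 the median was -0.31 over 22 probes in rows 1 to 266 and 0.40 over 28 probes in rows 267 to 532. On chromosome 7 the values were -0.20 over 19 probes and 0.43 over 28, on chromosome 9 -0.35 over 9 and 0.35 over 17, and on chromosome 11 -0.42 over 8 and 0.66 over 14. Every chromosome with at least 2 probes in both row ranges (2, 7, 9, 11, 19, 10, 6, 16, 1, 17, 14 and 15) had a higher median in rows 267 to 532.

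Neighbouring receptor genes had differences of both signs. Probes within 1 Mb of the next formed 37 groups, 18 of them with 5 or more probes and 185 probes in all. Each of these 18 groups held differences of both signs. The largest, with 38 probes at chr2:85562082-89978763, ran from -1.24 for Olfr1143 to 1.69 for Olfr1269, with a median of 0.01. The class I cluster at chr7:109632942-112352756 held 22 probes with a median of 0.04, from -1.02 for Olfr549 to 1.34 for Olfr570.

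**Figure D5:**
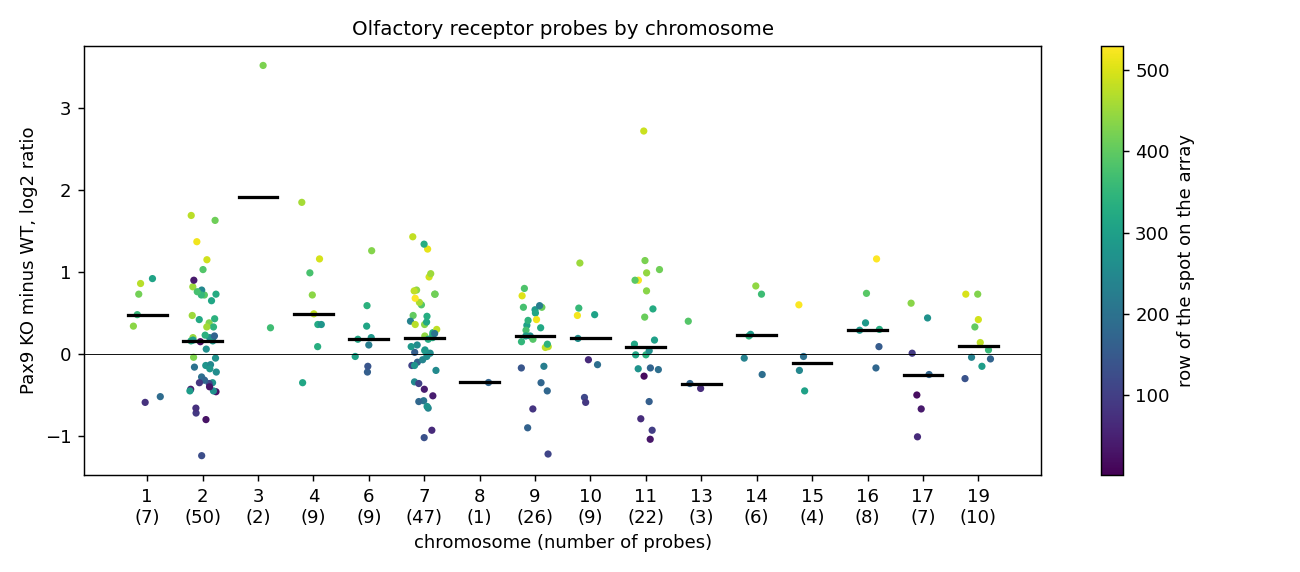
Difference knockout minus wild type in the log2 ratio of each receptor probe by chromosome, with the number of probes in brackets below each chromosome and the colour giving the row of the spot. Black lines are chromosome medians, such as 0.16 on chromosome 2 and -0.25 on chromosome 17, and within a chromosome yellow and green points (high rows) mostly lie above blue ones (low rows).

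With a row pattern fitted to the probes of other genes subtracted, fewer calls were left. The receptor probes' own row pattern was reduced and not removed, so the probes still called are not free of it. A smooth curve of the log ratio on row, fitted on each array to the probes of other genes and subtracted, left 10 receptor probes higher and 0 lower, with 1.31% of all tested probes called, a median difference of 0.14 and a Spearman correlation with row of 0.66. A surface on row and signal left 5 higher and 0 lower, with 0.978% of all tested probes called and a correlation of 0.51, beside 0.80 without a correction. The 5 were Olfr266 at 3.14 (adjusted p = 0.019), Olfr332 at 2.17 (adjusted p = 0.026), Olfr1153 at 1.33 (adjusted p = 0.028), Olfr74 at 1.30 (adjusted p = 0.037) and Olfr570 at 1.16 (adjusted p = 0.034), all in limma. Olfr1153 lies in row 38, at the end of the array where receptor probes were mostly lower. It had Cy5 signals of 333.5, 473 and 384.5 on the knockout arrays, against 58.8, 109 and 220 on the wild type arrays, and Cy3 signals of 343, 328 and 360 on the knockout arrays, against 339, 292 and 278.5 on the wild type arrays. It missed the threshold without the correction (0.90, SE 0.20, adjusted p = 0.054), passed with the replicate block (adjusted p = 0.033 in limma) and was chosen after its values were seen.

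The call also depended on how the ratio was made. With the authors' deposited log10 ratio, turned to log2, 3 receptor probes were higher and 0 lower, the row correlation was 0.29, and 2.39% of all tested probes were called. With median centring of each array in place of loess, 2 were higher and 0 lower, the row correlation was 0.32, and 0.456% of all tested probes were called. Olfr266 passed in both, at 2.80 (adjusted p = 0.033) and 2.47 (adjusted p = 0.018) in limma, and Olfr332 passed with median centring, at 2.12 (adjusted p = 0.021), and not with the deposited ratio, at 1.11 (adjusted p = 0.12). Of 20 other settings fitted probe by probe, Olfr266 passed in 19, all but the one without Pax9 knockout replicate 3 (adjusted p = 0.053 in limma), and Olfr332 in 17, all but that one (adjusted p = 0.054), the deposited ratio and the series matrix. Among the 20, Aquantile normalization between arrays leaves the log ratio unchanged and so repeats the main fit.

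3 receptors were chosen for what is known of them, after their values were seen. Olfr73, a receptor for eugenol, had 33.3, 67.7 and 63.6 in Cy5 on the knockout arrays, against 27.5, 27.6 and 63.5 on the wild type arrays (difference 0.06, SE 0.15, adjusted p = 0.83 in limma). Olfr544, a receptor for azelaic acid, had 633, 509.5 and 611.5 on the knockout arrays, against 71.4, 78.7 and 114 on the wild type arrays (difference 0.63, SE 0.19, adjusted p = 0.11 in limma). Its Cy3 signals were 625, 592 and 625 on the knockout arrays, against 208, 184 and 180 on the wild type arrays, and its spot lies in row 462. Olfr1507, known as MOR28 from studies of receptor choice, rose by 0.73 (SE 0.15, adjusted p = 0.044 in limma), with Cy3 signals of 169, 154 and 154 on the knockout arrays, against 46.3, 43.8 and 51.6 on the wild type arrays.

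Olfactory receptor probes that missed the detection rule showed the row as well. The Cy5 signal of 97 of the 964 probes (10.1%) was well above background on all knockout and no wild type array, at a median row of 457. That of 55 (5.71%) was so on all wild type and no knockout array, at a median row of 83. For 250 probes it was so on no array. The matching shares of other genes' probes are not given, so these counts are not read as particular to olfactory receptors. Just outside the rule, with a single mark missing, Olfr557 had Cy5 signals of 468, 318 and 425 on the knockout arrays, against at most 54.9 on the wild type arrays, and Olfr675 had 65.2, 129 and 79.9 on the knockout arrays, against 76.5, 79.0 and 106.6 on the wild type arrays. Just inside it, Olfr1061 and Olfr478 had a lowest Cy3 signal of 11.1, both on Pax9 knockout replicate 1. For Olfr478, in row 105, the Cy3 signals were 11.1, 106 and 11.3 on the knockout arrays, against 113, 116 and 120 on the wild type arrays, with Pax9 knockout replicate 2 among the wild type arrays.

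Markers of olfactory sensory neurons varied in signal and in the sign of their difference. Omp, the olfactory marker protein of mature sensory neurons, had Cy5 signals of 16.1, 7.0 and 15.6 on the knockout arrays, against 37.5, 57.2 and 111 on the wild type arrays, and was well above background on 2 and 3 of them. Of the 15 probes for 8 of the 10 mature neuron genes on the array, 11 were tested, and probes of 3 genes (Cnga2, Gnal and Ano2) were higher and none lower in limma, with a median difference of 0.01. Over all tested probes 2.4% were higher and 1.78% lower. Their summed Cy5 signal was 1258, 1189 and 1521 on the knockout arrays, against 362, 381 and 1007 on the wild type arrays. Cnga2 had Cy5 signals of 234.8, 217.1 and 209.7 on the knockout arrays, against 20.2, 33.1 and 49.0 on the wild type arrays. It rose by 0.82 (SE 0.14, adjusted p = 0.031 in limma), with a Cy3 difference of 1.10 and a spot in row 455.

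A probe of Gnal in row 404 had Cy5 signals of 357, 177 and 265 on the knockout arrays, against 0.5, -2.0 and 7.1 on the wild type arrays, where it was not well above background. It was called higher on the knockout arrays (adjusted p = 0.0086 in limma), with a Cy3 difference of 0.5. The 2 other tested Gnal probes differed by -0.05 and -0.04 and did not pass (adjusted p = 0.86 and 0.91 in limma), so the probes of this gene disagreed. A probe of the calcium-activated chloride channel Ano2 in row 170 had 230, 172 and 554 on the knockout arrays, against 6.9, 10.5 and 32.3 on the wild type arrays (difference 2.47, SE 0.36, adjusted p = 0.021 in limma). Its Cy3 difference was 0.01. The other Ano2 probe, in row 493, was well above background in Cy5 on no array and did not enter the test. The part of these cells in the receptor signal was not tested.

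The wider trafficking and signalling list, with 22 of its 24 genes on the array, had 43 tested probes, of which 5 were higher and 1 lower, with a median difference of -0.05. It holds Omp, Cnga2, Gnal and Ano2 too, so the calls of the last 3 are counted again here. The counts of this and the next lists stand beside 2.4% higher and 1.78% lower over all tested probes. 2 of the 3 probes of the receptor kinase Adrbk2 were higher (1.06 and 0.79, adjusted p = 0.020 and 0.037 in limma). They lie in rows 427 and 487, with Cy3 differences of 0.18 and 0.91. The other Adrbk2 probe, in row 292, differed by -0.11 (adjusted p = 0.80). A probe of the heat shock protein Hspa1a in row 138 fell (-2.12, SE 0.40, adjusted p = 0.038 in limma), and its other probe, in row 424, differed by -1.54 (adjusted p = 0.11). The transport proteins Rtp1 and Reep1, which bring receptors to the cell surface, had differences of -0.30 and 0.91 (adjusted p = 0.54 and 0.12 in limma). Of the 20 tested probes for 14 genes of receptor gene choice, 1 was lower and 0 were higher. It is a probe of the heterochromatin protein Cbx5 in row 73 (-0.77, SE 0.16, adjusted p = 0.045 in limma), whose other probes differed by -0.41 in row 217 and by 0.46 in row 484 and did not pass. Of the progenitor list's 7 tested probes the proneural factor Neurog1 rose (0.91, SE 0.19, adjusted p = 0.045 in limma), in row 440 and with a Cy3 difference of 1.45. Of 4 tested probes of olfactory supporting cell genes none passed.

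Lists of the cell types an esophagus can hold had few calls, beside 2.4% of all tested probes higher and 1.78% lower. A probe of the muscle gene Myh2 rose (1.63, adjusted p = 0.040 in limma) among 12 skeletal muscle probes, whose summed Cy5 signal was 152388, 1492845 and 217439 on the knockout arrays, against 26187, 297869 and 64968 on the wild type arrays. The other 3 Myh2 probes did not pass, and the epithelial gene Sox2 fell (-1.04, adjusted p = 0.023 in limma) among 10 tested esophageal epithelium probes. The Sox2 spot lies in row 53, with a Cy3 difference of -0.28. That of the called Myh2 probe lies in row 259, with a Cy3 difference of 0.1. None passed among the smooth muscle, nerve and Schwann cell, fibroblast, endothelium, immune and red blood cell lists. The 6 red blood cell probes had the highest median difference of the lists, at 1.87, and adjusted p of 0.068 to 0.21 in limma. Their summed Cy5 signal was 63313, 12040 and 31148 on the knockout arrays, against 4309, 3648 and 2105 on the wild type arrays, with no overlap, and its part in the receptor signal was not tested. The summed Cy5 signal of the nerve and Schwann cell probes was 2106, 7969 and 2026 on the knockout arrays, against 1786, 1925 and 3883 on the wild type arrays, and overlapped. In such bulk RNA, fewer cells of a type and less RNA per cell cannot be told apart.

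Other chemoreceptor families were detected too. Of 148 vomeronasal receptor probes, which serve pheromone detection, 27 (18.2%) were detected in both dyes on all arrays, beside 22.8% of the olfactory receptor probes. They had a median log ratio difference of 0.15, with 1 higher and 1 lower, and a Spearman correlation with row of 0.83. Of 16 taste receptor probes 5 were detected, with a median difference of -0.28 and none called. Of 4 trace amine receptor probes 1 was detected and it was higher, at 0.80, with a Cy3 difference of 1.44.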

How the data were processed

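RNA was measured on 6 two-colour Agilent arrays. The authors deposited scanner files with linear intensity values for 45018 spots and a log10 ratio of Cy5 over Cy3, made with Agilent Feature Extraction 10.7.3.1 per the file headers, while version 9.1 is the one in the submitters' processing notes. The deposited series matrix holds log2 values that correlate at -0.993 to -0.996 with the scanner log2 ratio, so their sign was turned. Their column medians lay between -0.024 and 0.013, and their centring is unknown.

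The intensities were corrected by normexp (offset 50) and normalized within arrays by loess. Controls had weight 0, and 55 to 164 outlier spots per array were dropped. None was saturated, and replicate spots were averaged. Tested probes had Cy5 well above background on every array of the knockout group, the wild type group or both. The knockout minus wild type contrast used lmFit and eBayes of limma 3.58.1 under R 4.3.3, two-sided and without covariates, with Benjamini-Hochberg adjustment over 30479 probes and a threshold of 0.05. The fit was tested on simulated data. Fits on Cy5 or Cy3 alone used quantile normalized values. The number of arrays limits the precision.

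The members, the gene lists and the tests were chosen with earlier results of these data known. The genes named are the 12 called receptor probes with the smallest p, the 4 largest differences in each direction, the 4 brightest, the 3 highest and lowest ratios, Olfr266, genes with 2 detected probes, and probes next to the detection limit. Others are said to be chosen after their values were seen. Deviations of same-numbered arrays of the 2 groups had correlations of 0.17, 0.51 and 0.34, beside -0.49 to 0.16 for arrays of different number. The value of replicate 1 thus barely exceeded the highest of these. The numbers were taken as pairs only where the replicate block was used. Same-numbered arrays also share a position on their slide. RefSeq (GRCm38.p6) was used for names only: 214 of 220 probes matched by accession and 6 by symbol, and 7 carry another symbol there. 217 are of protein coding genes. Alternatives were the deposited ratio, the matrix, an offset of 16, median centring, Aquantile, Cy5 alone, other filters, an intensity trend, array weights, a replicate block, gene means, leaving out arrays and, added after seeing the data, row corrections, Cy3 alone and each row range alone. The lowess of the log ratio on row had a span of 0.2 and the surface on row and signal a span of 0.05.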

Additional observations from a re-analysis of the deposited data

How the results depend on the processing

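In the log ratio 27 receptor probes were called higher and 4 lower, with a median difference of 0.20. The counts higher and lower were 3 and 0 with the deposited log10 ratio and with the series matrix, 2 and 0 with median centring (median 0.03, while the median of all tested probes was 0.07), 63 and 38 with Cy5 alone, 56 and 17 with array weights, 18 and 2 with the filter on both channels, 40 and 9 with the replicate block, 81 and 51 in Cy3 alone, 10 and 0 with the row lowess (median 0.14), 5 and 0 with the row and signal surface (median 0.12), and 18 and 0 with the row lowess and the replicate block together (median 0.14). Rows 1 to 266 alone gave 0 and 4 with a median of -0.27, and rows 267 to 532 alone 27 and 0 with a median of 0.43. Leaving out each array in turn gave 0 to 23 higher, 0 to 6 lower and a median of 0.15 to 0.21. Over all tested probes the count called was 1274, against 727 with the deposited ratio, 714 with the matrix, 139 with median centring, 3887 with array weights, 2254 with the replicate block, 707 with the filter on both channels, 398 with the row lowess and 298 with the surface, and 38 to 1112 without an array. An offset of 16, no filter, an intensity trend and gene means kept all 3 values within 1.5 times, with 19 to 39 higher and 3 to 6 lower. Of these, no filter and the intensity trend leave the fitted differences as they are, so only their counts could change. Aquantile leaves the log ratio itself unchanged, so it repeats the main fit and is no check of it.

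Some named probes that missed the threshold turned sign. Olfr1221 was at 1.68 in Cy5 alone, 0.77 with the deposited ratio and the matrix, 0.34 with an offset of 16 and -0.32 to 0.11 without an array. Olfr478 was at 0.88 with the deposited ratio and the matrix, 0.10 with median centring, 0.12 with the surface and 0.04 with the row lowess, with or without the block. Olfr234 in row 195 was at 0.31 in Cy5 alone, 0.04 with the deposited ratio and the matrix, 0.21 with median centring, 0.05 with the surface, 0.06 with the row lowess, with or without the block, and -0.28 to 0.15 without an array. Olfr1359 in row 68 was at 0.28 with the deposited ratio and the matrix and 0.15 with median centring, and in row 388 at -0.01 as a gene mean. Olfr1061 was at -0.11 in Cy5 alone and -0.12 (without Pax9 knockout replicate 2) to 0.49 without an array, Olfr397 at -0.14 with median centring, Olfr456 in row 280 at -0.03 in Cy5 alone and Olfr978 at -0.15 with the surface. Olfr493 was at -0.10 in Cy5 alone, -0.10 with median centring and -0.02 to 0.09 without an array in row 159, and in row 257 at -0.07 in Cy5 alone, -0.06 with the deposited ratio and the matrix, -0.18 with median centring, -0.02 with an offset of 16 and -0.02 to 0.04 without an array, with -0.00 among them. Olfr128, which was called lower, was at 0.29 (adjusted p = 0.66 in limma) with the deposited ratio. The cause of these changes was not tested. The replicate block turned no sign, but it could hardly do so. With each number once in each group, a block leaves the difference as it is unless a spot is missing. Only the p-values could change. Among the named receptor probes Olfr1143, Olfr930, Olfr391-ps and Olfr1153 passed with the block (adjusted p of 0.043, 0.021, 0.028 and 0.033 in limma). A block for slide or scan could not be fitted, since each slide holds 1 group, and dim signals near the detection mark limit what the arrays can show.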
